A study of Homo sapiens with 6 samples.

Results

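The SR splicing factors are RNA-binding proteins with a domain rich in arginine and serine, and 10 of their genes are described here: SRSF1, SRSF2, SRSF3, SRSF4, SRSF5, SRSF6, SRSF7, SRSF9, SRSF10 and SRSF11. Their transcripts were found in the deposited abundance table by the gene symbol that the authors' table of comparisons gives for each transcript. That gave 109 of 215170 transcripts, under 11 Ensembl gene IDs, since SRSF10 is split over ENSG00000188529 and ENSG00000215699. Of the 109 transcripts, 7 are listed at 0 in all libraries, 79 had a mean of at least 1 TPM, a length-corrected share of the library's transcripts, and entered the fit of levels, and 48 were frequent enough to enter the fit of shares. GENCODE release 29 gives a type for 100 of them (91.7%): 38 protein coding, 21 that end in nonsense-mediated decay, 23 with a retained intron and 18 other processed transcripts.

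The libraries are total RNA of KMS27, an established human myeloma line, depleted of ribosomal RNA. The HA-TAZ group has 3 libraries of KMS27 cells that overexpress TAZ, the Hippo pathway coactivator encoded by WWTR1, with an HA tag. The wild type group has 3 libraries of KMS27 cells, called controls below. The control columns bear the name scr, which is in no label, and were assigned by elimination. They are called control a, b and c, and whether these cells received a construct is not known. The promoter of the construct, and whether the cells are 1 clone, are not given in the sources used here. Per the labels' protocol the libraries were made in triplicate, and nothing says that the cultures were separate, so the p-values measure only the spread between these libraries.

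SR proteins bind short sequences in exons, mostly to help the splicing machinery recognise weak splice sites, and several of them also travel with the mRNA to the cytoplasm. Their activity and location are set by phosphorylation of the arginine and serine domain. Many SR genes limit their own output: the protein favours an isoform of its own transcript with an early stop codon, which nonsense-mediated decay removes, or an isoform that keeps an intron. A gene's total RNA can therefore hold a large part that encodes no full protein.

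Such an early stop lies in 4 of the genes within a segment that the coding isoform lacks. These sequences are shown because the amounts of the isoforms that carry them are compared below. Each pair starts with the same 15 bases, the end of the exon before the segment. The coding line goes on into the next coding exon. The stop line goes on into the segment up to the first in-frame stop codon, which is in capitals. They are 5′ to 3′ on the strand of the gene, from GENCODE release 29 transcripts on GRCh38. Of these isoforms and those of SRSF2 described next, only the coding isoform of SRSF1 has the version that was quantified. The others are later versions, and the structures of the quantified versions were not checked.
SRSF1 coding isoform: tttagatctcatgagggagaaactgcctac
SRSF1 retained intron: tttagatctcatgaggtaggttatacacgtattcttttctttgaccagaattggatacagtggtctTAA
SRSF3 coding isoform: tccacctcgtcgcagatctccaagaaggag
SRSF3 extra exon: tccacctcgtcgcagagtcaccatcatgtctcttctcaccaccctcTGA
SRSF6 coding isoform: gctacggaagccgcagtggtggaggtggat
SRSF6 extra exon: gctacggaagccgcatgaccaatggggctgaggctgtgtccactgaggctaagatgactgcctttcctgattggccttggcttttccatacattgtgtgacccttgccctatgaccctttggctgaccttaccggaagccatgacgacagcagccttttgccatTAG
SRSF7 coding isoform: gcgaagaagaagcaggtcacggtctagatc
SRSF7 retained intron: gcgaagaagaagcaggtatttatttTAA

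The SRSF1 intron is 200 bases long (chr17:58005601-58005800, minus strand), and the stop ends 54 bases into it. The SRSF3 exon is 456 bases long (chr6:36599821-36600276, plus strand), with the stop ending 34 bases into it. The SRSF6 exon spans 268 bases (chr20:43459153-43459420, plus strand), and 152 of them are read before the stop is complete. The SRSF7 intron spans 875 bases (chr2:38748654-38749528, minus strand), of which 13 are read. Thus the reading frame closes soonest in SRSF7 and latest in SRSF6, counted from the start of the segment. SRSF2 has another arrangement: its decay isoform has the same coding sequence as the main coding isoform, but 498 bases after the stop codon (chr17:76734563-76735060, minus strand) are spliced out, so that an exon junction follows the stop.

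Values below are scaled TPM, the authors' TPM divided by a median-of-ratios factor per library. TPM is relative to all RNA of a library and corrected for length, and it holds no read depth. The factors were 0.866 to 0.967 in the HA-TAZ libraries and 1.06 to 1.21 in the controls, so they moved with the group, and how much of a difference between groups they set cannot be told apart. Undoing them lowered the median log2 difference of all genes from -0.0252 to -0.271. WWTR1 was at 293 to 306 TPM in the HA-TAZ libraries and at 1.69 to 2.69 TPM in the controls. All 8 plasma cell markers were present, with group means from 3.502 scaled TPM for SLAMF7 to 208 for IRF4, both in the controls. In scaled TPM, SDC1 (102 and 78.9), SLAMF7 (7.74 and 3.502) and XBP1 (149 and 143) had higher means in HA-TAZ, and CD38 (10.7 and 16.8), IRF4 (191 and 208), TNFRSF17, PRDM1 and MZB1 lower ones. Of these 8, SDC1, SLAMF7, XBP1 and CD38 did not overlap between groups, where 38.5% of all genes did not. XBP1 was barely apart, with the lowest HA-TAZ library at 145.03 and the highest control at 144.93. In TPM as deposited XBP1 was lower in HA-TAZ without overlap (135 and 160), as were CD38, IRF4, TNFRSF17, PRDM1 and MZB1. There SDC1 overlapped and SLAMF7 stayed higher. On that scale all genes had a median log2 difference of -0.271, and how many of them did not overlap was not counted. Nothing is read from these lower markers. The part of these markers in the results was not tested. The next values are in TPM as deposited. The B cell markers MS4A1 and PAX5 were at or below 0.198 TPM in each library, and the T cell marker CD3D was at 0 in every HA-TAZ library. Of the 13 markers of T, myeloid, stromal and epithelial cells, the highest in any library was KRT8, at 1.75 to 2.83 TPM in HA-TAZ and 3.40 to 4.51 TPM in the controls.

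The first comparison asked whether the total RNA of each SR gene differed between HA-TAZ and wild type cells. SRSF9 rose in HA-TAZ, and it was the 1 of 11 gene IDs past an adjusted p of 0.05 (limma on log2 of scaled TPM plus 1, Benjamini-Hochberg adjustment over 22651 genes). Of all genes tested, 7.29% passed, 4.67% higher and 2.63% lower, so 1 of 11 is near the background. The groups did not overlap for 6 of the 11 IDs, all 6 higher in HA-TAZ, namely SRSF1, SRSF2, SRSF3, SRSF6, SRSF7 and SRSF9, against 38.5% of all genes in either direction. The members had a median log2 difference of 0.118, against -0.0252 over all genes tested. Over the 12613 genes with a mean of at least 5 TPM, which hold all 11 IDs, the median was 0.0402. At an unadjusted p under 0.05 by limma were 6 of the 11 IDs, all higher, and 3759 higher and 3200 lower of all 22651 genes.

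SRSF9 (chr12:120461668-120469793, minus strand, GRCh38), an SR protein with a short arginine and serine domain, was at 125.5, 123.6 and 124.0 scaled TPM in the HA-TAZ libraries, in the order 1, 2 and 3 that is kept below. In the controls, in the order a, b and c, it was at 99.4, 109.9 and 103.5 scaled TPM. Every HA-TAZ library was above every control, and the HA-TAZ libraries lay closer to each other than the controls did. The log2 difference was 0.25 (SE 0.048, adjusted p = 0.042 by limma). Without scaling the sign turned, to -0.05 with an adjusted p of 0.619 by limma. The call was lost when any 1 of the 6 libraries was left out, with adjusted p-values of 0.0736 to 0.134 by limma. Most calls of all genes were lost there too, with 117 to 462 left of 1652. SRSF9 lies across GATC on the opposite strand, and no source used here says if reads were assigned by strand, so its values are uncertain to that extent.

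SRSF7 (chr2:38743599-38751494, minus strand), which has a zinc knuckle beside its RNA-binding domain, was at 129, 129 and 116 scaled TPM in the HA-TAZ libraries and 98.5, 109 and 109 in the controls. All HA-TAZ libraries were above all controls, with control a lowest. The log2 difference was 0.24 (95% interval 0.07 to 0.40, adjusted p = 0.083 by limma), which misses the threshold. SRSF1 (chr17:58003360-58007346, minus strand), a general splicing activator and the most abundant of the SR genes here, was at 218, 207 and 205 scaled TPM in the HA-TAZ libraries and 176, 201 and 182 in the controls. The groups of SRSF1 lay close, with control b just below HA-TAZ 3, and the log2 difference of 0.17 did not pass (95% interval 0.02 to 0.33, adjusted p = 0.135 by limma).

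SRSF2 (chr17:76734115-76737374, minus strand), which acts early in recognition of exons, was at 184, 180 and 173 scaled TPM in the HA-TAZ libraries and 158, 164 and 163 in the controls. The difference of 0.14 log2 units had a narrow interval of 0.04 to 0.24 and an adjusted p of 0.083 by limma. SRSF2 lies across MFSD11 on the opposite strand, so its values share the uncertainty of SRSF9. SRSF3 (chr6:36594353-36605600, plus strand), the smallest SR protein and an adaptor for mRNA export, was at 90.8, 92.4 and 87.0 scaled TPM against 81.9, 84.6 and 82.1. SRSF6 (chr20:43457928-43464247, plus strand), an SR protein with a pair of RNA-recognition motifs, was at 118, 117 and 110 scaled TPM against 105, 109 and 103. Neither passed, with log2 differences of 0.12 for each and adjusted p-values of 0.122 and 0.155 by limma.

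The other 4 genes overlapped between groups. SRSF4 (chr1:29147743-29181987, minus strand), one of the longest SR proteins, was at 56.2, 52.9 and 50.2 scaled TPM in HA-TAZ and 63.9, 59.3 and 50.4 in the controls, a log2 difference of -0.12 (95% interval -0.35 to 0.12). SRSF5 (chr14:69726900-69772005, plus strand) was at 97.6, 99.4 and 90.5 scaled TPM against 88.4, 100.8 and 88.0, a log2 difference of 0.05 (95% interval -0.12 to 0.23). SRSF11 (chr1:70205682-70253052, plus strand), which binds the splice site factor U2AF, was at 51.2, 54.8 and 48.3 scaled TPM against 51.8, 54.3 and 48.0. Its log2 difference was 0.00 with a 95% interval of -0.17 to 0.17, so changes beyond that range are outside the interval. SRSF10 (chr1:23964804-23980927, minus strand), known as a splicing repressor once dephosphorylated, was at 126, 124 and 115 scaled TPM summed over both IDs, against 132, 131 and 124. Its summed log2 difference was -0.09 (95% interval -0.22 to 0.04).

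The order of the SR genes by scaled TPM in the controls ran from SRSF1 (186 ± 13.4, SD, n = 3) and SRSF2 (162 ± 2.87) through SRSF10 (129 ± 4.32, both IDs) to a group of SRSF6 (106 ± 2.97), SRSF7 (106 ± 6.19) and SRSF9 (104 ± 5.33), which did not differ beyond their spread. SRSF5 (92.4 ± 7.29) and SRSF3 (82.9 ± 1.48) followed, and SRSF4 (57.9 ± 6.83) and SRSF11 (51.4 ± 3.18), which lay within their spread of each other, were lowest. In HA-TAZ the top was again SRSF1 (210 ± 7.16) before SRSF2 (179 ± 5.16), while SRSF7 (125 ± 7.58), SRSF9 (124 ± 0.995) and SRSF10 (122 ± 5.98) lay together. SRSF4 and SRSF11 were lowest in both groups.

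**Figure D1:**
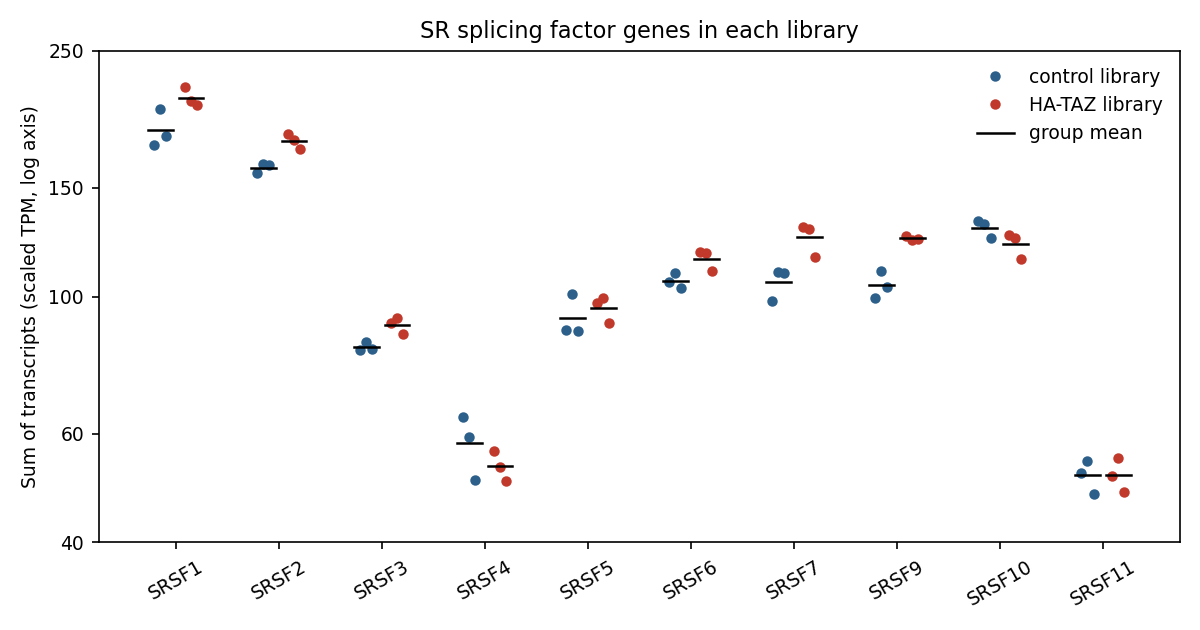
Sum of all transcripts in scaled TPM (y axis, log scale) of the 10 SR genes (x axis), with 1 point per library and a line at each group mean. SRSF9 is at 123.6 to 125.5 in HA-TAZ and 99.4 to 109.9 in the controls, while SRSF11 is at 48.0 to 54.8 over both groups.

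These directions rest on the scaling. On TPM as deposited, all 11 gene IDs had a negative difference, with a median of -0.18 against -0.271 over all genes, and none passed (limma, 5 at an unadjusted p under 0.05). With factors computed over protein-coding genes, 6 of the 11 IDs were positive and 5 negative, and SRSF9 was at 0.18 with an adjusted p of 0.0609 by limma. The split over all genes moved as well: 1057 of 1652 calls were higher with the main factors, 261 of 3329 on TPM as deposited, and 660 of 1519 with the protein-coding factors. In each of these 3 scalings the members' median lay above that of all genes. A factor moves both medians by nearly the same amount, so this order does not show that the difference is free of the scaling.

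The second comparison asked how the RNA of each gene was divided among its isoforms, which needs no scaling between libraries. Shares are of the gene's TPM, over both IDs for SRSF10. None of the 48 shares tested passed an adjusted p of 0.05 (limma on the arcsine square root), where 0.00946% of 52850 shares passed, and 9 had an unadjusted p under 0.05, against 15.6% of all. With limma's diffSplice, 3 of the 48 transcripts passed, and 2.87% of all. It compares the log2 difference of a transcript with that of its gene's other transcripts in the fit, which is not the share itself. The groups did not overlap for 18 of the 48 shares (37.5%), 6 higher and 12 lower in HA-TAZ, against 22.2% of all shares. The 12 include SRSF2 ENST00000586778, SRSF4 ENST00000605204, and SRSF11 ENST00000460795 and ENST00000461935, which clear the 5% minimum only through the controls. Their mean shares in HA-TAZ were 4.38%, 4.77%, 4.38% and 4.85%, so nothing is read from this count or its split. None of the 79 transcript levels passed (lowest adjusted p 0.0647 by limma), where 0.534% of all did. Of these 79, 24 (30.4%) had an unadjusted p under 0.05, 18 higher and 6 lower, against 24.1% of all transcripts, 13.1% higher and 11.1% lower.

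In SRSF1 the spliced coding isoform made up more of the gene in every HA-TAZ library. This isoform, ENST00000258962, with its exons joined across the intron shown above, made up 23.1%, 22.1% and 24.5% of SRSF1 in the HA-TAZ libraries and 10.7%, 12.9% and 20.6% in the controls. The groups did not overlap, but control c came near them. ENST00000582730, the most abundant SRSF1 transcript, keeps the intron and with it the early stop, although GENCODE types it as protein coding. It made up 47.5%, 48.7% and 47.8% in HA-TAZ and 55.1%, 51.9% and 51.5% in the controls, again without overlap. The adjusted p-values of these shares were 0.27 and 0.236 by limma, and diffSplice called ENST00000258962 higher (adjusted p = 0.0395). The decay isoform ENST00000583741 was at 18.2% to 19.0% in HA-TAZ and 19.0% to 24.9% in the controls, and the minor coding ENST00000584773 was at 1.16% to 1.39% against 0.659% to 0.798%.

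SRSF2 held a decay isoform, ENST00000585202, that was higher in every HA-TAZ library. It was at 8.93, 8.33 and 7.64 scaled TPM in HA-TAZ and 2.13, 3.84 and 3.61 in the controls, or 4.41% to 4.86% and 1.35% to 2.35% of the gene. The lowest HA-TAZ library was above the highest control. Its level differed by 1.17 log2 units (SE 0.183, adjusted p = 0.0646 by limma), which does not pass. A fit of transcripts with a mean of at least 5 TPM gave an adjusted p of 0.0365 by limma, but this transcript clears that minimum only through the HA-TAZ libraries (7.53 TPM against 3.53 in the controls), so that value supports nothing. In the authors' deposited table its effect was 0.998 as a natural log (SE 0.187, q = 1.4e-05), at a mean of 394 estimated counts.

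The main coding isoform of SRSF2, ENST00000359995, made up 55.1%, 51.6% and 57.9% in HA-TAZ and 46.1%, 50.4% and 53.5% in the controls, which overlap. The next coding isoform, ENST00000392485, was at 18.5% to 19.9% against 17.5% to 20.9%. Of the retained-intron transcripts of SRSF2, ENST00000592676 was at 2.66% to 3.28% in HA-TAZ and 4.60% to 5.38% in the controls. It was singled out after its values were seen, as was the minor decay isoform ENST00000452355, at 1.05% to 1.95% against 0.128% to 0.541%. The shares of these 3 minor SRSF2 forms lay under the 5% minimum and were not tested.

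In SRSF3 the coding isoform ENST00000373715 made up 59.7%, 56.5% and 58.6% in HA-TAZ and 51.9%, 54.6% and 58.5% in the controls, so control c lay within the HA-TAZ range. Its retained-intron form ENST00000339436 was at 20.3% to 22.4% against 21.3% to 23.8%. In SRSF6 a decay isoform was the most abundant form: ENST00000483871, with the extra exon shown above, made up 58.0%, 59.5% and 60.1% in HA-TAZ and 55.6%, 58.5% and 56.7% in the controls. The coding ENST00000244020 held nearly all of the rest, at 39.9% to 42.0% against 41.5% to 44.4%. Both overlapped between groups, and neither share passed (adjusted p = 0.409 and 0.412 by limma).

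In SRSF7 the most abundant form was also a decay isoform, ENST00000443213, which keeps the intron shown above. It made up 26.0%, 26.2% and 25.9% in HA-TAZ and 30.1%, 28.2% and 27.3% in the controls, without overlap (adjusted p = 0.335 by limma). The coding ENST00000409276 was at 25.6% to 27.0% against 22.6% to 25.8%, and the decay isoform ENST00000425778 at 3.21% to 3.59% against 2.14% to 3.22%. So within SRSF7, 1 decay isoform had lower and another had higher mean shares in HA-TAZ.

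The transcripts of each gene whose release 29 model covers the early stop were also summed. In SRSF1, SRSF6 and SRSF7 they are almost wholly the isoforms given above. In SRSF3 they are all transcripts but the coding one, so the sums are no separate evidence. For SRSF1 they made up 49.3% ± 0.331 of the gene in HA-TAZ and 54.1% ± 2.05 in the controls (SD, n = 3), and for SRSF7 26.1% ± 0.111 and 28.8% ± 1.19. In both genes every HA-TAZ library was below every control. For SRSF3 they made up 41.7% ± 1.63 and 45.01% ± 3.34, and for SRSF6 59.2% ± 1.05 and 56.9% ± 1.49, with overlap in both genes. SRSF6 was thus the 1 of these 4 genes with a higher mean share in HA-TAZ. These sums were described and not tested, and no such sum was made for all genes. Over all genes, 22.2% of single transcript shares and 27.9% of retained-intron shares did not overlap between groups. Retained-intron shares had a median difference of -1.82 points over 6459 genes, the direction of the SRSF1 and SRSF7 sums. The decay share of SRSF7 as a whole overlapped, at 35.6% ± 1.05 in HA-TAZ and 37.0% ± 0.786 in the controls.

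In SRSF5, a gene known for rapid induction by growth signals, the coding ENST00000557154 made up 28.2%, 26.5% and 27.6% in HA-TAZ and 25.2%, 23.8% and 23.9% in the controls. The retained-intron ENST00000556184 was at 18.4%, 17.0% and 16.5% against 25.4%, 19.7% and 20.5%. Neither overlapped between groups, and control a had the highest share of the retained-intron form. Their adjusted p-values were 0.262 and 0.302 by limma. The minor coding ENST00000394366 was at 5.46% to 6.07% in HA-TAZ and 1.46% to 3.24% in the controls. Other SRSF5 forms of these types went the other way in mean share: the retained-intron ENST00000555412 was at 3.96% ± 0.00644 against 3.09% ± 1.05, and the coding ENST00000553548 at 1.44% ± 1.45 against 3.83% ± 3.33 (SD, n = 3).

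In SRSF11 the coding ENST00000370950 made up 9.16%, 7.89% and 9.01% in HA-TAZ and 5.44%, 5.96% and 6.79% in the controls, and the coding ENST00000370951 5.58% to 8.27% against 1.62% to 3.69%. The processed transcript ENST00000460795, singled out after its values were seen, was at 3.30%, 6.77% and 3.06% in HA-TAZ and 14.5%, 9.57% and 8.70% in the controls. None of these ranges overlapped. The limma adjusted p-values of the shares were 0.252 for ENST00000370950 and 0.243 for ENST00000460795, and ENST00000370951 was under the 5% minimum. DiffSplice called ENST00000460795 lower (adjusted p = 0.00157), at a mean of 74.5 estimated counts in the authors' deposited table. But ENST00000460795 clears the 5% minimum only through the controls (mean share 10.9%, against 4.38% in HA-TAZ), so its adjusted p-values support nothing. The 2 most abundant SRSF11 transcripts, ENST00000405432 at 22.4% to 27.8% against 24.6% to 30.7% and ENST00000370949 at 8.32% to 11.2% against 6.97% to 10.1%, overlapped. ENST00000405432 has no type in GENCODE release 29. Other processed transcripts of SRSF11 had higher mean shares in HA-TAZ, ENST00000463116 at 4.77% ± 0.691 against 3.62% ± 0.622 and ENST00000486667 at 7.89% ± 1.69 against 4.88% ± 1.22 (SD, n = 3).

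In SRSF10 the most abundant form is a processed transcript, ENST00000485292. It made up 22.1%, 23.9% and 23.6% in HA-TAZ and 29.1%, 29.6% and 27.4% in the controls, and no other tested share of the family had a lower adjusted p (0.190 by limma). Its level passed in the fit of transcripts of at least 5 TPM (log2 difference -0.38, adjusted p = 0.0456 by limma). DiffSplice called ENST00000485292 lower against the gene's other transcripts in the fit (adjusted p = 0.0439). The next form, ENST00000374449, has no type in GENCODE release 29 and was at 18.1% to 19.1% against 16.8% to 17.1%. The minor processed transcript ENST00000473754 was at 1.5% to 1.64% against 2.91% to 4.64%. These shares take both gene IDs as 1 gene, and how reads were divided between the IDs was not tested.

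In SRSF9 and SRSF4 the main coding isoform overlapped between groups. The coding ENST00000229390 made up 75.4%, 77.3% and 74.6% of SRSF9 in HA-TAZ and 72.6%, 73.5% and 75.9% in the controls. Its retained-intron form ENST00000548326 was at 7.97% to 8.60% against 8.92% to 9.84%. In SRSF4 the coding ENST00000373795 was at 42.2% to 48.2% against 40.1% to 43.2%, and the retained-intron ENST00000497015 at 19.5% to 31.9% against 22.7% to 29.7%. The SRSF4 ranges overlapped in both forms, and HA-TAZ 3 had the lowest share of the retained-intron form.

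**Figure D2:**
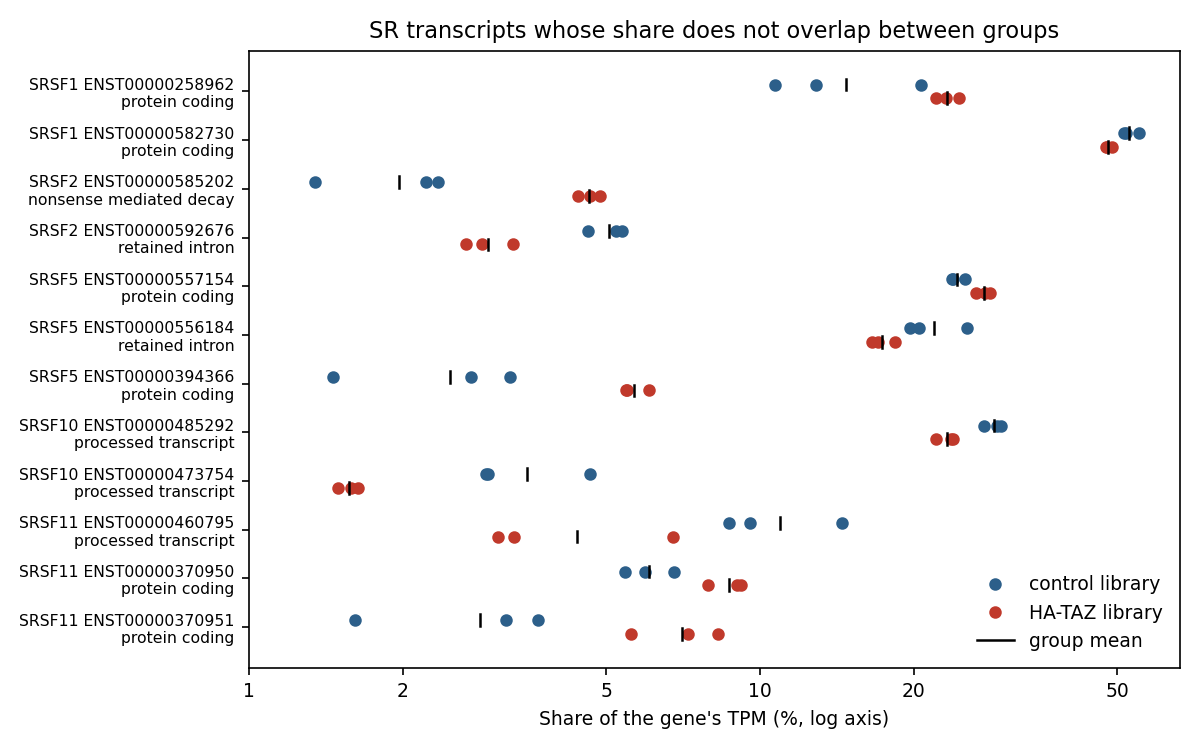
Share of the gene's TPM in percent (x axis, log scale) for 12 transcripts of the SR genes (y axis) whose HA-TAZ and control libraries do not overlap, with 1 point per library and a line at each group mean. They were picked for this separation, so it is a description: SRSF1 ENST00000258962 is at 22.1% to 24.5% in HA-TAZ and 10.7% to 20.6% in the controls, and SRSF11 ENST00000460795 at 3.06% to 6.77% and 8.70% to 14.5%.

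The third comparison grouped each gene's transcripts by type. The protein coding share had a higher mean in HA-TAZ in 9 of 10 genes, all but SRSF6, with a median difference of 3.87 percentage points. Over all 9204 genes tested the median was 2.56 points and 73.9% of genes were higher, so the SR genes went with most genes. None of the 10 passed (limma, lowest adjusted p 0.11, and 5 at an unadjusted p under 0.05), where 0.0761% of all genes did. The groups did not overlap in 5 of the 10, against 28.6% of all.

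SRSF11 had the largest difference of the 10, with coding shares of 30.5%, 38.7% and 37.6% in the controls and 47.8%, 42.4% and 49.6% in HA-TAZ, among the 72.2% of its TPM that has a type. SRSF5 had 30.8%, 37.5% and 37.5% coding in the controls and 41.8%, 38.9% and 42.8% in HA-TAZ. In both genes control a had the lowest coding share. SRSF10 had 24.7%, 24.4% and 22.0% coding in HA-TAZ and 19.5%, 17.7% and 19.9% in the controls, among the 70.3% of its TPM that has a type. SRSF7 and SRSF9, the other genes without overlap, differed by 3.02 and 2.90 points. The opposite sign in SRSF6, -2.29 points, was the mirror of its decay isoform.

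Retained-intron shares had a lower mean in HA-TAZ in 7 of 8 genes, with a median of -1.39 points, against -1.82 over all 6459 genes. None passed (limma, 3 at an unadjusted p under 0.05), where 0.526% of all did, and 4 of the 8 did not overlap, against 27.9% of all. Of those 4, 3 were lower: SRSF5 (41.7% ± 2.83 and 46.8% ± 3.00), SRSF7 (11.96% ± 0.548 and 13.6% ± 0.747) and SRSF9 (19.7% ± 0.570 and 22.6% ± 1.34, SD, n = 3). SRSF10 was the 1 gene with a higher share, at 23.5% ± 0.687 in HA-TAZ and 21.1% ± 1.38 in the controls.

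Decay shares had a higher mean in HA-TAZ in 2 of 7 genes and a lower one in 5, with a median of -1.18 points against -0.234 over all 4028 genes. None passed (limma, 1 at an unadjusted p under 0.05), where 0.0248% of all did, and 1 of the 7 did not overlap, against 17.9% of all. That gene was SRSF2, at 6.25%, 5.70% and 6.35% in HA-TAZ and 1.47%, 2.65% and 2.76% in the controls (adjusted p = 0.113 by limma). SRSF1 had the largest lower value, 22.4% ± 0.558 against 26.2% ± 3.45 (SD, n = 3), where control c lay with the HA-TAZ libraries.

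**Figure D3:**
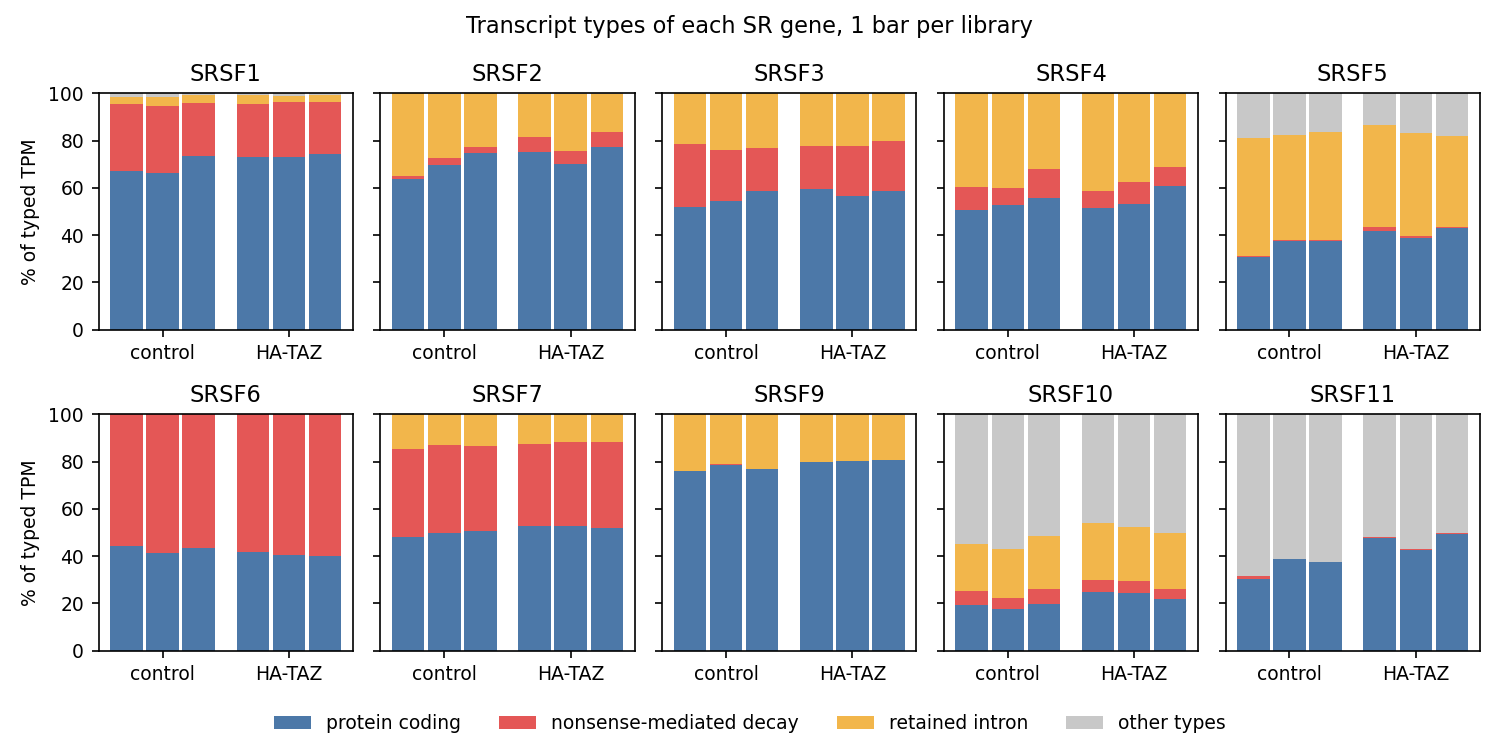
Stacked shares of a gene's typed TPM in percent (y axis) in protein coding, decay, retained-intron and other transcripts, with 1 bar per library (x axis, by group) and 1 panel per SR gene. Coding shares of SRSF11 are at 42.4% to 49.6% in HA-TAZ and 30.5% to 38.7% in the controls, and decay shares of SRSF2 at 5.70% to 6.35% and 1.47% to 2.76%.

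Summing the protein coding transcripts alone, a comparison added after the data were seen, gave more calls than the gene sums. SRSF1, SRSF2, SRSF3, SRSF7, SRSF9 and SRSF11 rose in HA-TAZ, 6 of 10 genes (limma). Of all 10527 such sums 32.7% passed, 28.6% higher, and their median log2 difference was 0.131 against 0.254 for the SR genes. The scaling was not centred on these sums. When the factors were computed over the coding sums themselves, none of the 10 passed (limma, 3 at an unadjusted p under 0.05), with a median of 0.104 against -0.0027 over all. On TPM as deposited none passed (limma, 2 at an unadjusted p under 0.05) and 3 of the 10 were positive, and with factors over protein-coding genes 4 passed. Of all coding sums 18.9%, 20.5% and 23.1% passed under these 3 scalings, in that order. Without HA-TAZ 1, 1 of the 10 passed, without HA-TAZ 2, 2 did, and 4 to 6 did without any other library, where 9.79%, 20.4% and 17.7% to 28.5% of all coding sums were called higher.

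SRSF11 had the largest coding difference: 17.6, 17.2 and 18.2 scaled TPM in HA-TAZ and 11.03, 14.5 and 13.4 in the controls, a log2 difference of 0.43 (SE 0.093, adjusted p = 0.014 by limma). The sum of all its transcripts had a log2 difference of 0.00, as given above. This coding sum leaves out the untyped ENST00000405432, the most abundant SRSF11 transcript. With it added, the sums were 31.9, 30.8 and 29.1 scaled TPM in HA-TAZ and 26.4, 31.1 and 25.1 in the controls, which overlap, and the log2 ratio of the means went from 0.45 to 0.15. SRSF7 followed with 68.4, 68.0 and 60.1 against 47.2, 54.4 and 55.3 scaled TPM, or 0.32 log2 units (adjusted p = 0.022 by limma). SRSF9 was at 100.1, 99.2 and 100.2 against 75.8, 86.5 and 79.8 scaled TPM, or 0.31 (adjusted p = 0.0116 by limma). In these 3 genes every HA-TAZ library was above every control.

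The coding sum of SRSF1 was 159, 152 and 152 scaled TPM in HA-TAZ and 118, 134 and 134 in the controls, a log2 difference of 0.26 (adjusted p = 0.0214 by limma). It includes the form with the early stop, which did not differ in level (0.04, adjusted p = 0.776 by limma), while ENST00000258962 was at 50.5, 45.7 and 50.1 against 18.8, 26.0 and 37.5 scaled TPM. SRSF2 differed by 0.24 (adjusted p = 0.0496 by limma) and SRSF3 by 0.20 (adjusted p = 0.0413 by limma). The 4 genes that did not pass were SRSF5 at 0.28, SRSF10 at 0.17, SRSF6 at 0.04 and SRSF4 at -0.03, with adjusted p-values of 0.0811, 0.199, 0.627 and 0.794 by limma.

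**Figure D4:**
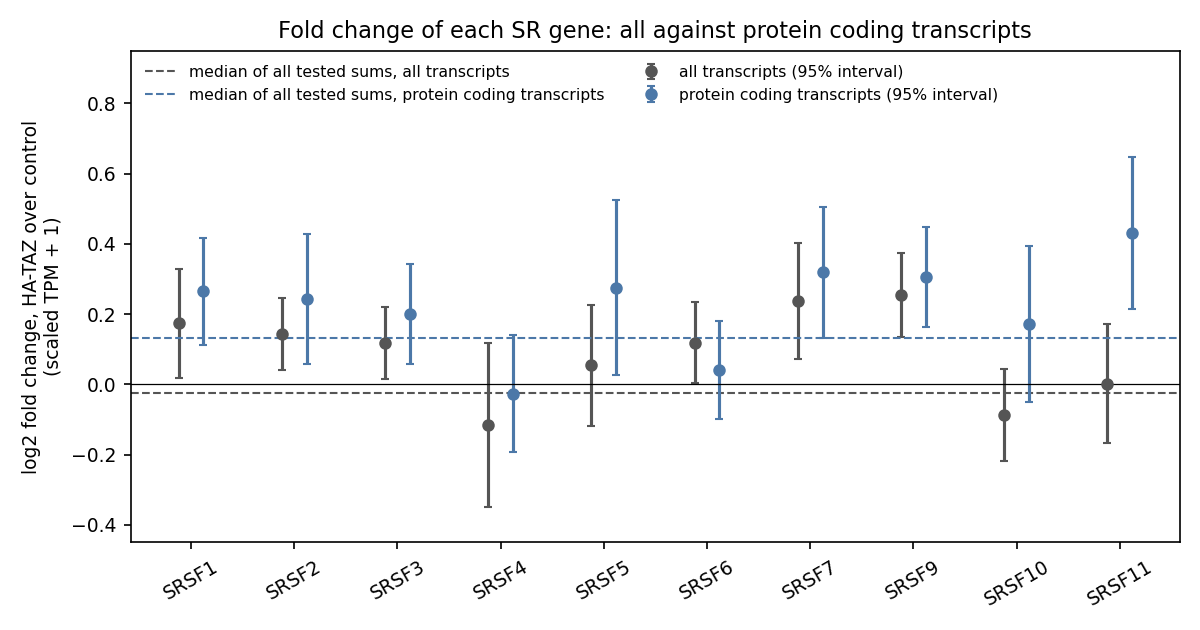
Log2 difference between HA-TAZ and controls (y axis) for each SR gene (x axis), as the sum of all transcripts and the sum of protein coding transcripts, with 95% intervals from limma and dashed lines at the median of all sums of each kind. SRSF11 is at 0.00 for all transcripts and 0.43 for coding transcripts, and SRSF4 is at -0.12 and -0.03.

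Single transcripts were also grouped by type. Of the 25 coding transcripts of the SR genes at or above 1 TPM, 22 had a positive log2 difference, with a median of 0.277. Among coding transcripts of all genes 63.5% were positive, with a median of 0.101. On TPM as deposited 11 of the 25 were positive, against 32.2% of all. The 14 decay transcripts had a median of 0.127 against -0.0183, the 22 retained-intron transcripts -0.0141 against -0.101, and the 13 processed transcripts -0.119 against -0.105. In each type but the last, the median of the SR transcripts was above that of all transcripts of the type.

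The authors' deposited table, made with sleuth, gave a statistic for 93 of the 109 transcripts. In the authors' deposited table, 13 of the 79 transcripts at 1 TPM or more (16.5%) had a q-value below 0.05, against 9.73% of all such transcripts. Of these 13 in the authors' deposited table, 11 were positive, 13.9% of the 79 against 7.13% of all, and 2 negative, 2.53% against 2.59%. They lie in 8 of the 10 genes, all but SRSF4 and SRSF6. How many of all genes hold such a transcript was not counted, so nothing is read from the 8. The libraries are the ones tested above, so this is no separate evidence.

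In the authors' deposited table, the positive ones besides the SRSF2 decay isoform were led by the coding SRSF11 ENST00000370950 (effect 0.382 as a natural log, q = 0.0016) and SRSF9 ENST00000229390 (0.214, q = 0.00187). The main coding isoforms of SRSF2 (0.211, q = 0.00335) and SRSF3 (0.161, q = 0.0109) followed in the authors' deposited table. SRSF1 had 2 there, ENST00000584773 (0.650, q = 0.00973) and ENST00000258962 (0.629, q = 0.0278). The others in the authors' deposited table were SRSF5 ENST00000394366 (0.935, q = 0.017), SRSF11 ENST00000370951 (0.975, q = 0.0235), and SRSF7 ENST00000425778 (0.5, q = 0.0328) and ENST00000409276 (0.241, q = 0.042). Both negative ones in the authors' deposited table were processed transcripts of SRSF10, ENST00000485292 (-0.263, q = 0.0129) and ENST00000473754 (-0.827, q = 0.0435). By type, 9 of the 11 positive ones were coding and 2 were decay isoforms. The types of all transcripts at such a q-value were not counted, so nothing is read from this split.

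The genes around the SR proteins were taken from 5 lists, with 84 gene IDs tested. Of these, 13 were called, 14.3% higher and 1.19% lower, against 4.67% and 2.63% of all genes. The counts of each list below stand against these shares of all genes. Most list IDs have a mean of at least 5 TPM, where a larger share of all genes was called. In a fit at that minimum it was 2240 of 12613 genes, 1513 of them higher. The excess over all genes is therefore not read as a trait of the lists. Of the kinases, phosphatases and import factor that set SR phosphorylation and location, 2 of 16 gene IDs rose and none fell. They were PPP1CA, a catalytic subunit of protein phosphatase, with a log2 difference of 0.33 (adjusted p = 0.0322 by limma), and TNPO3, the importin that carries SR proteins into the nucleus, with 0.28 (adjusted p = 0.0324 by limma). The SR kinases SRPK1 and CLK1, named for their role after their values were seen, were at 0.05 and -0.02 (adjusted p = 0.639 and 0.808 by limma). Without overlap between groups, 3 IDs of the list were higher and 2 lower, against 38.5% of all genes in either direction. The 2 lower were the kinases DYRK1A (-0.17) and SRPK2 (-0.08), which did not pass (adjusted p = 0.123 and 0.177 by limma). The median of the list was 0.081, against -0.0252 over all genes and 0.0402 over genes with a mean of at least 5 TPM.

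Of 16 IDs of other SR and SR-like proteins, 2 rose: RNPS1, which sits on exon junctions (0.20, adjusted p = 0.0465 by limma), and 1 of the 2 IDs of SRSF8 (0.57, adjusted p = 0.0316 by limma). SRSF8 is uncertain, since its reads are split and its other ID was at 0.03. The median of this list was -0.0122. Of 16 splice site recognition genes, SNRPC, a protein of the U1 particle (0.32, adjusted p = 0.0307 by limma), and U2AF2, which binds the pyrimidine tract (0.30, adjusted p = 0.0469 by limma), rose, with a list median of 0.0598.

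Of 18 IDs of the exon junction complex and nonsense-mediated decay, 3 rose and 1 fell, with a median of 0.0142. SMG8, a regulator of the kinase SMG1, was at 0.41, the helicase DHX34 at 0.34 and the junction helicase EIF4A3 at 0.32 (adjusted p = 0.0302, 0.0428 and 0.046 by limma). SMG1, the kinase that phosphorylates UPF1 in decay, was at 71.9, 77.2 and 76.5 scaled TPM in HA-TAZ and 92.8, 85.9 and 88.4 in the controls, a log2 difference of -0.24 (adjusted p = 0.0485 by limma). UPF1, named likewise, did not pass (0.29, adjusted p = 0.056 by limma). Of 18 mRNA export IDs, the helicase DDX39A (0.48), the export cofactor NXT1 (0.43) and 1 of the 8 IDs of DDX39B (0.50, uncertain because its reads are split) rose (adjusted p = 0.0388, 0.0387 and 0.0331 by limma), with a median of 0.124. When any 1 library was left out, only 117 to 462 of all genes were called, against 1652 with all 6. No ID of any list was among them (limma, 20 to 29 list IDs at an unadjusted p under 0.05). How many of all genes were at such a p in those fits was not counted. With all 6 libraries, 29 of the 84 IDs were, and 3759 higher and 3200 lower of all 22651 genes. On TPM as deposited 10 of the 84 IDs (11.9%) passed, all lower in HA-TAZ, against 14.7% of all genes, 13.5% lower. There SMG1 fell again, by 0.54 on the log2 scale (adjusted p = 0.0354 by limma), the other 12 of the 13 did not pass, and RNPS1 and TNPO3 turned negative. With factors over protein-coding genes all 13 kept their sign and 9 passed.

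**Figure D5:**
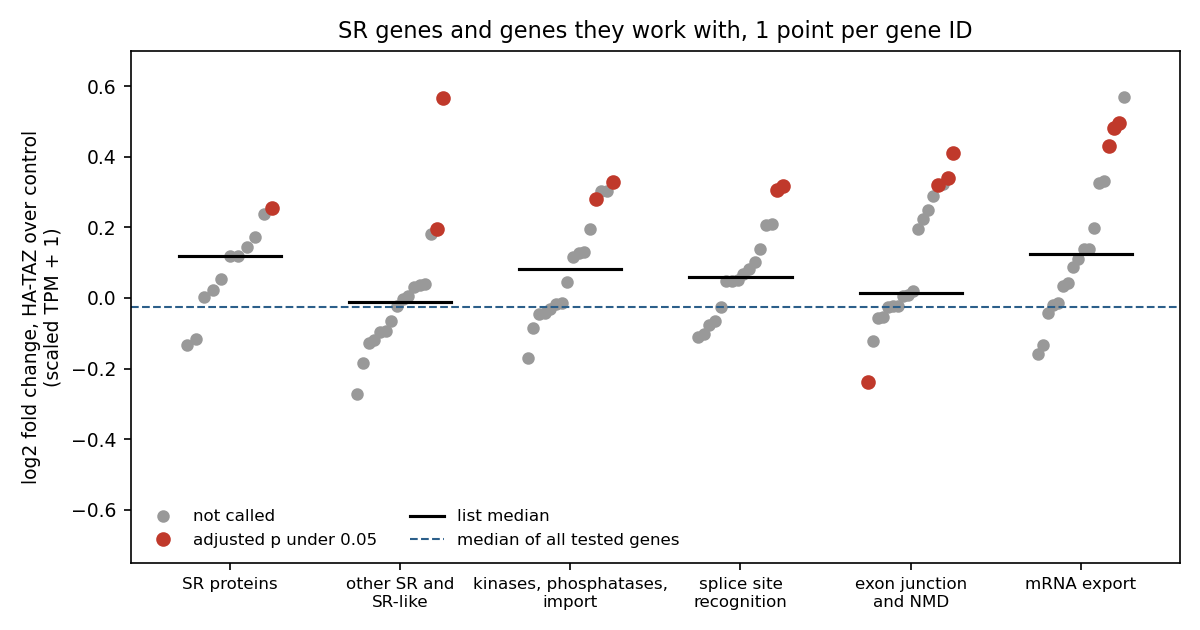
Log2 difference between HA-TAZ and controls (y axis) for each gene ID of the SR list and the 5 lists of genes that act with SR proteins (x axis), with called genes in colour, a line at each list's median and a dashed line at the median of all genes. The list medians run from -0.0122 for other SR and SR-like proteins to 0.124 for mRNA export.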

How the data were processed

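The authors deposited TPM per transcript, in the 6 libraries described above, and a table of their own sleuth comparison with p-values, q-values and effects as natural log values, per the file headers. Per the submitters' processing notes, kallisto 0.46.0, sleuth 0.30.0 and the build GRCh37 were used. TPM sums to 1000000 per library, so the depth of a library is unknown. How ambiguous reads were divided among isoforms bears on every share.

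TPM was summed per Ensembl gene ID and divided by a median-of-ratios factor over 21512 genes. Genes or transcripts with a mean of at least 1 TPM were tested with limma 3.58.1 (R 4.3.3) on log2(scaled TPM + 1), the prior variance following mean level, which understates changes of low values. The test is two-sided with Benjamini-Hochberg adjustment at 0.05. Shares of at least 5% on average were tested on the arcsine square root, within symbols of at least 1 TPM. Type shares use GENCODE release 29, matched by ID without version (38 of the 109 have the same version), in genes with at least 50% of their TPM typed, a limit chosen after the data were seen, and mean type shares of 1% to 99%. Coordinates are GRCh38 from that release. Fits were tested on simulated data. Tables were joined with pandas 2.3.3 and numpy 2.4.6 and drawn with matplotlib 3.10.9 under Python 3.11.15.

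Named in each gene were the 2 transcripts of highest mean TPM and any with an adjusted p or, at 1 TPM or more, an authors' q-value under 0.05, and in the other lists the called genes. The members and lists were chosen with earlier results of these data known. Alternatives in scaling, pseudocount, filters, trend, tool and libraries were tried. Counts at an unadjusted p under 0.05 in type shares, coding sums and alternatives have no share of all genes beside them, so nothing is read from them. A gene of the fixed marker lists is not reported here.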

Additional observations from a re-analysis of the deposited data

How the results depend on the processing

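The call of SRSF9, the 1 SR gene sum past the threshold, depended on the processing. The number of SR gene sums called was 0 on TPM as deposited, 0 with factors over protein-coding genes, 0 with no filter on mean TPM, 0 without the intensity trend and 6 with protein coding transcripts alone, and it was 0 to 0 when each library was left out. SRSF9 was at -0.0452 on TPM as deposited (adjusted p = 0.619 by limma), with 0.22 to 0.29 when each library was left out. Among the genes that act with SR proteins, TPM as deposited gave 1 call for splice site recognition, 2 for the exon junction complex and decay and 1 for mRNA export, all lower, and for other SR and SR-like proteins and for kinases, phosphatases and import the 2 higher calls each became 3 lower calls. Without the trend there was 1 call for other SR and SR-like proteins, 0 for kinases, phosphatases and import, 0 for splice site recognition, 1 for the exon junction complex and decay and 1 for mRNA export. Each of these 5 lists had 0 to 0 calls when each library was left out. Of the SR transcript levels 3 passed with a minimum of 5 TPM, where 9.79% of all passed, but both SRSF2 transcripts among them clear that minimum only through the group where they are high. With diffSplice 3 of the 48 SR transcripts of the share fit passed, where 2.87% of all did. Among these, SRSF11 ENST00000460795 clears the 5% minimum only through the controls. The cause was not tested, except that fewer transcripts or fewer libraries entered some of these fits. Over all genes, 1652 were called with the main settings, 3329 on TPM as deposited, 691 without a filter, 758 without the trend, 3443 of 10527 coding sums, and 117 to 462 when each library was left out. No share by type passed under any alternative listed for it. No paired analysis was possible because no label links a control column to a replicate number. The depth per library is unknown, so the error of counting behind a low share cannot be given.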
